A study of Mus musculus with 6 samples.

Results

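The genes described here are 40 genes of the cytosolic tRNA synthetases and of the integrated stress response, chosen by symbol from the 24421 genes listed for gastrocnemius-plantaris (GP) muscle, a mixed calf muscle of the mouse. They were 18 synthetase genes, 5 transcription factor genes, 4 stress effector genes, 6 genes of amino acid synthesis, 3 of mitochondrial one-carbon metabolism and 4 of amino acid transport. In the fit, 39 passed the filter on low counts, and Slc7a11 did not.

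A tRNA synthetase loads an amino acid onto its matching tRNA before the ribosome can use it, and several of these enzymes sit together in the multisynthetase complex. In the integrated stress response, kinases that sense amino acid shortage, unfolded protein, heme shortage or viral RNA phosphorylate the initiation factor eIF2, which lowers general translation while the mRNA of the transcription factor ATF4 is translated more. ATF4 is known to raise genes of amino acid supply, several synthetases among them, together with the transcription factor CHOP (gene Ddit3) and its own brakes such as Trib3.

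Bulk RNA-Seq compared 3 libraries labelled Ctrl with 3 labelled cKO, each from a single mouse 5 months of age and 3 months past tamoxifen. The strain background was given as B6C3F1, and the mice were male. Ctrl mice were Net39 fl/fl without Cre, and cKO mice were HSACreERT2;Net39 fl/fl. Both groups therefore carried the floxed Net39 allele and received tamoxifen, and they differed by the Cre transgene. This transgene is driven by the human skeletal actin promoter, which limits the deletion to muscle fibres and spares their stem cells and the other cell types of the tissue. NET39 is a transmembrane protein of the muscle nuclear envelope. The comparison asked which transcripts changed when Net39 was removed in adult muscle.

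Net39, listed under its older symbol Ppapdc3, went against the labels, with 5.93 to 7.92 CPM (counts scaled to the library size) in Ctrl-labelled libraries and 113 to 151 CPM in cKO-labelled ones (log2 fold change 4.22, edgeR's quasi-likelihood test, adjusted p = 0.000161; exact two-sided permutation test of the CPM, p = 0.1, the smallest that 3 mice against 3 allow). Every direction below is therefore given by label, as log2 of cKO-labelled libraries over Ctrl-labelled ones, and a swap of the labels would turn each one round. Libraries held 33860001 to 48839910 counts. In whole muscle, fewer cells of a type and less RNA per cell cannot be told apart.

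In 10 of the 32 members that matched RefSeq's promoter table by symbol or listed synonym, the window from 250 bases before to 50 after the gene's start held the composite element bound by ATF4 with C/EBP factors, written TGATGNAA (TTNCATCA on the other strand). This was 31.3% of the matched members, against 4.51% of all 27025 genes in the table. The members were chosen as genes of this response, known ATF4 targets among them, so the difference is tied to that choice. Among the synthetases it was 5 of 11. The element was in none of the 5 transcription factor genes and none of the 3 mitochondrial one-carbon genes. Cars, Hars, Lars, Nars, Rars, Vars, Wars and Slc7a5 had no entry. The stretches around the match follow for synthetases and for the stress and amino acid genes best known as ATF4 targets, 5′ to 3′ on the gene's strand, with the match in capitals (RefSeq, GRCm38.p6).
Gars, chr6:55037953-55037996: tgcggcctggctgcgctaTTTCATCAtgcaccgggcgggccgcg
Tars, chr15:11399648-11399691: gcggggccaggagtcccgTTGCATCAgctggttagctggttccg
Yars, chr4:129189888-129189930: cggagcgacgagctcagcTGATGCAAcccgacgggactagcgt
Iars, chr13:49682119-49682157: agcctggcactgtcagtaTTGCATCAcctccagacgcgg
Aars, chr8:111033712-111033755: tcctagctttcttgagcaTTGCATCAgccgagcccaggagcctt
Asns, chr6:7693207-7693250: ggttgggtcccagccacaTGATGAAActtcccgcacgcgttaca
Trib3, chr2:152344033-152344064: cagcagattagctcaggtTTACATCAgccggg
Chac1, chr2:119351031-119351074: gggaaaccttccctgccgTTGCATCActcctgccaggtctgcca
The Tars, Trib3 and Asns stretches are on the minus strand and the others on the plus strand. The match began 15 bases before the annotated start in Tars, 30 in Gars and 193 in Chac1, and 3 bases after it in Yars. Aars held a second match after its start. These are matches of letters in a fixed window, and no binding was measured here.

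With TMM factors, which scale the libraries by their composition, the synthetase genes leaned to cKO-labelled libraries and most of the stress response genes to Ctrl-labelled ones, and with total counts the synthetases as a group had a median near 0. Of the 18 synthetase genes 6 were higher in cKO-labelled libraries and 0 were lower (0 also at an unadjusted p of 0.05 and with DESeq2), and 16 had a positive log2 fold change. Of the 21 other members tested 1, Ddit3, was lower and 0 were higher (1 at an unadjusted p of 0.05, 0 with DESeq2), and 17 had a negative log2 fold change. Across all 39 members, 6 passed the adjusted p of 0.05 in the direction of cKO-labelled libraries, where the share over all genes tested was 12.6%, and 1 passed in the direction of Ctrl-labelled ones, where that share was 11.8%. Changes were small. By edgeR 0 members passed with a fold change over 2 in either direction, against 2.13% and 3.92% of all genes, and DESeq2 also gave 0 in both. At an unadjusted p of 0.05, 12 members were higher in cKO-labelled libraries and 5 in Ctrl-labelled ones, against 19.2% and 19.6% of all genes. The median log2 fold change was 0.24 over the synthetases and -0.29 over the other members, against -0.015 over all genes tested.

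**Figure D1:**
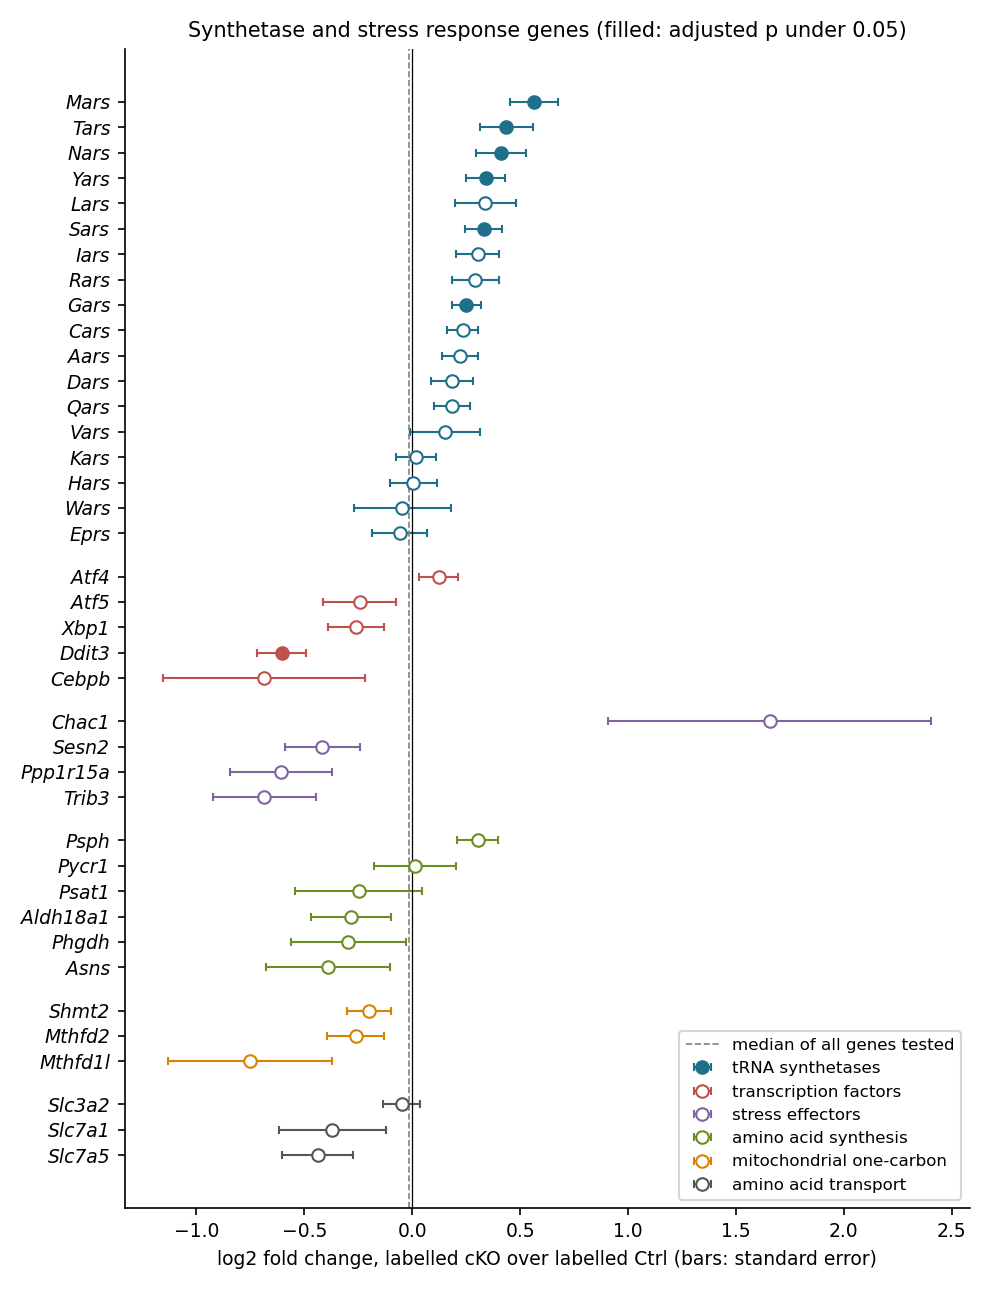
Log2 fold change of the 39 members tested (x axis, labelled cKO over labelled Ctrl, TMM scaling; bars are standard errors), grouped by role, with filled points where the adjusted p was under 0.05 and a dashed line at the median of all genes tested. Mars, Tars, Nars, Yars, Sars and Gars are filled on the right and Ddit3 on the left, while Chac1 lies farthest right with the widest bar.

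How the libraries were scaled set the sign of many of these values. Dividing by total counts alone moved the median of all genes tested from -0.015 to -0.27, since TMM factors were 1.08 to 1.11 in Ctrl-labelled libraries and 0.865 to 0.983 in cKO-labelled ones. With total counts the synthetase median was -0.015, 1 synthetase (Mars) was higher in cKO-labelled libraries, 2 (Eprs and Kars) were higher in Ctrl-labelled ones, and 11 members in all were called in the latter direction. Over all genes tested, 1786 higher and 1668 lower in cKO-labelled libraries became 673 and 4074, or 4.75% and 28.7%. Calls made with total counts are to be read beside these shares. A change of scaling moves all genes by nearly the same amount, so distances from the median of all genes hardly change by construction and say nothing about stability. The synthetase median stood 0.26 above the median of all genes with TMM and 0.25 above it with total counts, with 16 of 18 genes above it in both. The median of the other members stood 0.27 below it with both scalings, with 17 of 21 genes below it in both.

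**Figure D2:**
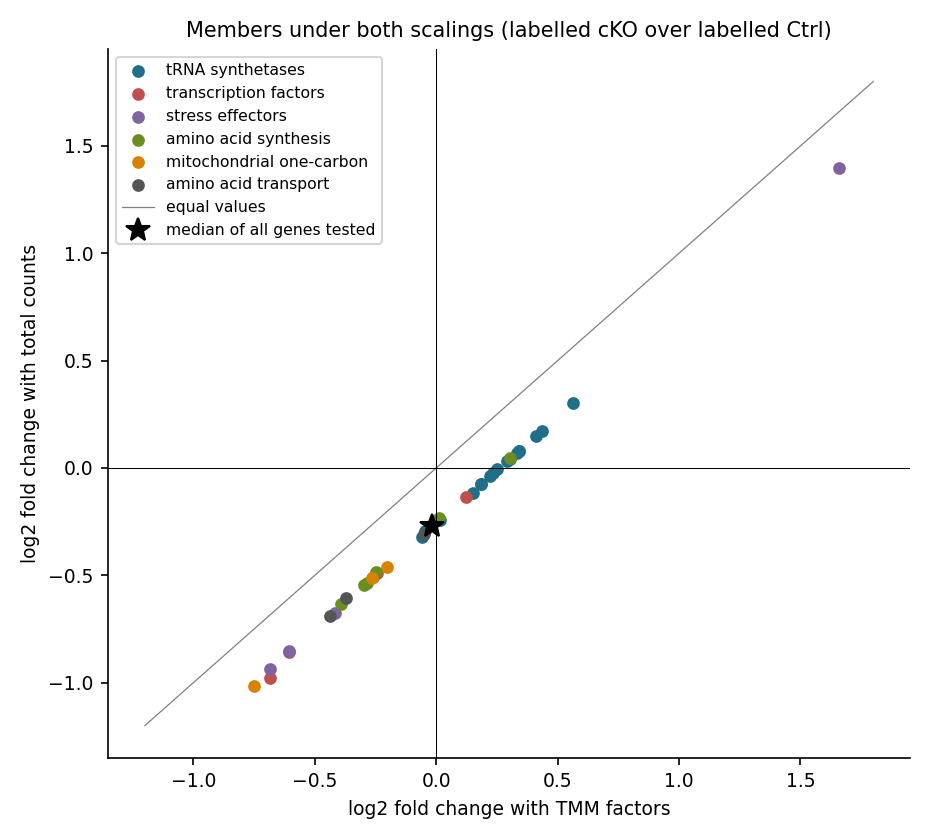
Log2 fold changes of the 39 members tested with TMM factors (x axis) and with total counts (y axis), coloured by role, with the line of equal values and a star at the median of all genes tested. All points lie below the line by about the same amount as the star, so 16 of 18 synthetases stay above the star on both axes while 8 of the 18 lie above 0 on the y axis.

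Mars, the methionyl-tRNA synthetase gene, changed most among the synthetases. It lies on chromosome 10 (127296221 to 127311786, minus strand, GENCODE M21, GRCm38 or mm10). It was counted at 70.1, 64.1 and 63.3 CPM in Ctrl-labelled libraries 1 to 3 and at 113, 86.5 and 92.9 CPM in cKO-labelled ones 1 to 3. The groups did not overlap, and cKO 1 was the highest. The log2 fold change was 0.56 (SE 0.11, edgeR's quasi-likelihood test, adjusted p = 0.0134), or 1.48-fold. Mars was called in 12 of the 13 alternative fits, with total counts among them, and lost its call without Ctrl 2 (adjusted p = 0.0521).

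Yars, for tyrosyl-tRNA synthetase, had 49.1, 47.7 and 45.0 CPM in Ctrl-labelled libraries and 60.8, 53.7 and 65.1 CPM in cKO-labelled ones. Sars, for seryl-tRNA synthetase, had 89.7, 92.1 and 90.6 CPM against 119, 102 and 122 CPM. In both genes Ctrl-labelled libraries lay close together, and the lowest cKO-labelled library, cKO 2, was still above all of them. The log2 fold changes were 0.34 (SE 0.09, adjusted p = 0.0329) for Yars and 0.33 (SE 0.09, adjusted p = 0.0340) for Sars.

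Tars, for threonyl-tRNA synthetase, had 44.0, 49.8 and 48.8 CPM in Ctrl-labelled libraries and 72.9, 53.3 and 66.8 CPM in cKO-labelled ones. Nars, for asparaginyl-tRNA synthetase, had 113, 125 and 132 CPM against 173, 139 and 180 CPM. Here too cKO 2 was the lowest of its group, only just above the highest Ctrl-labelled library. The log2 fold changes were 0.44 (SE 0.12, adjusted p = 0.0409) for Tars and 0.41 (SE 0.12, adjusted p = 0.0425) for Nars. Gars, for glycyl-tRNA synthetase, differed less but with little spread, at 70.4, 67.6 and 66.4 CPM against 80.4, 78.6 and 83.9 CPM (log2 fold change 0.25, SE 0.07, adjusted p = 0.0361). With total counts its log2 fold change was -0.0059.

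The calls of these 5 genes were less stable than that of Mars. Leaving out 1 library at a time, Gars kept its call in 0 of 6 fits by edgeR (adjusted p up to 0.159), and Yars, Sars, Tars and Nars each kept it in 1 of 6, the fit without cKO 2. The count of synthetases called was 9 without cKO 2, 2 without Ctrl 3, 1 without Ctrl 1, cKO 1 or cKO 3, and 0 without Ctrl 2. In 10 of the 18 synthetases all cKO-labelled libraries were above all labelled Ctrl, and in 0 was the reverse seen. Over all 39 members 11 genes were separated in this direction, against 22.0% of all genes tested, and 5 in the other, against 21.9%.

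The library labelled cKO 2 was the lowest of its group in 16 of the 18 synthetases. Median log2 ratios over the 18 genes, relative to the mean of Ctrl-labelled libraries, were 0.33 in cKO 1, 0.098 in cKO 2 and 0.31 in cKO 3, and ran from -0.069 in Ctrl 1 to 0.042 in Ctrl 3. In 5 synthetases cKO 1 and cKO 3 were above every Ctrl-labelled library while cKO 2 was not.

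**Figure D3:**
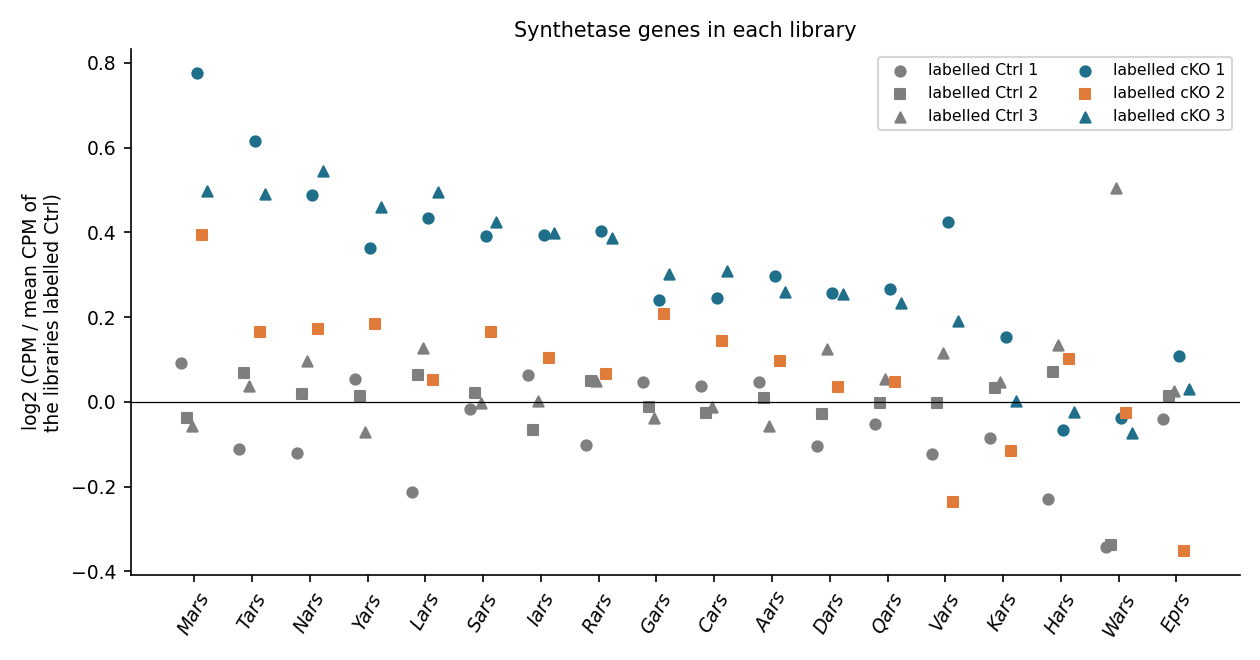
Log2 of each library's CPM over the mean CPM of Ctrl-labelled libraries (y axis, TMM scaling) for the 18 synthetase genes (x axis, in order of fold change), with circles, squares and triangles for mice 1, 2 and 3. Squares of cKO 2 (orange) lie between Ctrl-labelled libraries (grey) and the other cKO-labelled libraries (blue) in most genes, and Ctrl 3 stands far above its group in Wars.

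Of the other 12 synthetase genes, Cars (log2 fold change 0.23, adjusted p = 0.0517), Iars (0.30, adjusted p = 0.0651), Rars (0.29, adjusted p = 0.0876) and Aars (0.22, adjusted p = 0.0959) had groups that did not overlap but missed the threshold. Lars, Dars, Qars and Vars had log2 fold changes of 0.15 to 0.34 with overlapping groups. Kars (0.017, 95% interval -0.20 to 0.23), Hars (0.0051, -0.25 to 0.26), Eprs (-0.06, -0.36 to 0.24) and Wars (-0.05, -0.57 to 0.48) were near 0.

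Wars, for tryptophanyl-tRNA synthetase, turned on a single library. Its CPM was 39.8, 39.9 and 71.6 in Ctrl-labelled libraries and 49.1, 49.5 and 47.9 in cKO-labelled ones. Without Ctrl 3 all cKO-labelled libraries were above the remaining ones, with a log2 fold change of 0.30 (adjusted p = 0.0279).

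The 8 genes of the complex (Eprs, Iars, Lars, Mars, Qars, Rars, Kars and Dars) had a median of 0.24 on the log2 scale with 1 called, and the 10 others a median of 0.24 with 5 called, a difference that was not tested. Across the genes with a promoter entry, the median was 0.30 (0.22 to 0.44) over the 5 synthetases with the composite element and 0.19 (-0.06 to 0.56) over the 6 without it. Mars and Sars were among those without it.

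Levels of the synthetases were taken as CPM per kilobase of the union of all annotated exons. This length can far exceed that of the mRNA, as for Eprs, with 18102 bases in the union and 5638 in its longest transcript, so the order of genes depends on it. By this length, Kars was highest in Ctrl-labelled libraries (30.0 ± 1.48, SD, n = 3), followed by Nars (28.3 ± 2.13) and Gars (21.8 ± 0.663), and Tars (8.06 ± 0.524), Yars (7.96 ± 0.348) and Cars (7.34 ± 0.173) were lowest. Of the 17 neighbouring pairs in this order, 13 overlapped between libraries and 4 did not. By the same length, the first genes in cKO-labelled libraries were Nars (37.6 ± 5.02), Kars (30.3 ± 2.86) and Mars (28.4 ± 3.99).

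**Figure D4:**
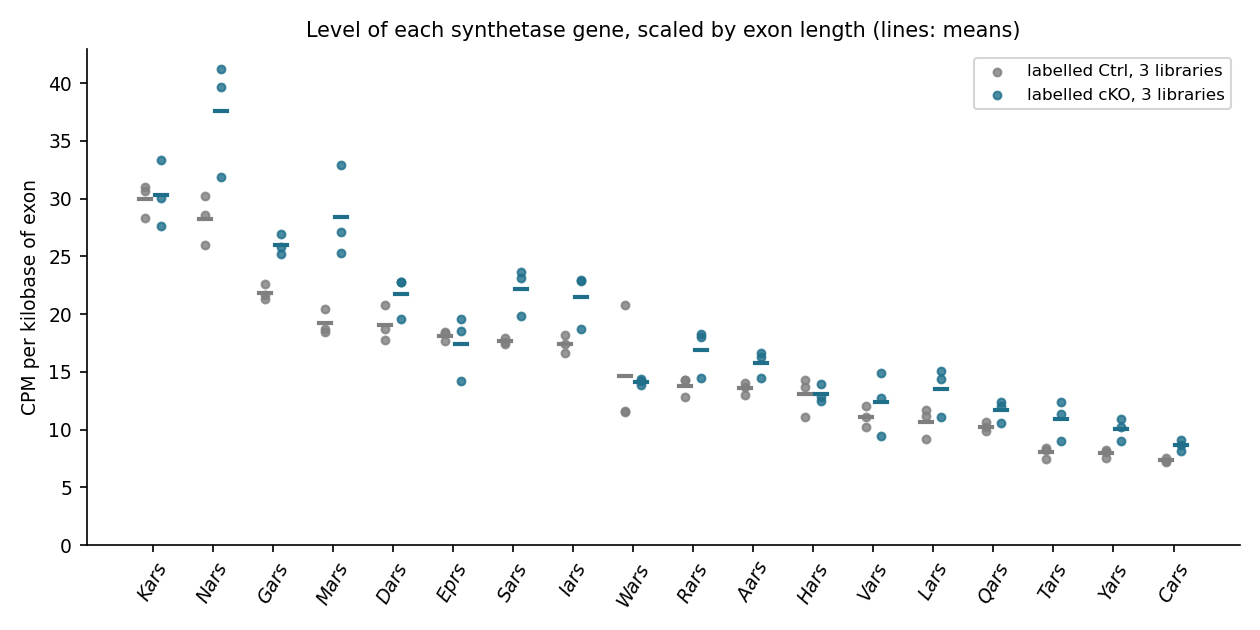
CPM per kilobase of the union of annotated exons (y axis) of the 18 synthetase genes (x axis) in the 3 Ctrl-labelled libraries (grey) and the 3 labelled cKO (blue), with lines at the means. By this length Kars and Nars are highest and Cars lowest in Ctrl-labelled libraries, and the blue points of Mars, Sars and Gars lie above all their grey points, as do those of Nars by a small margin.

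Of the 5 transcription factors, edgeR with TMM called 1, Ddit3, and with total counts it called Xbp1 lower in cKO-labelled libraries as well. With total counts 28.7% of all genes were called lower. Ddit3 encodes CHOP, a factor that rises late in the response and is known for its part in cell death. It was counted at 19.2, 18.1 and 15.6 CPM in Ctrl-labelled libraries and at 11.3, 12.8 and 10.7 CPM in cKO-labelled ones. The groups did not overlap. The log2 fold change was -0.61 (SE 0.11, edgeR's quasi-likelihood test, adjusted p = 0.0118), a 1.52-fold higher level in Ctrl-labelled libraries, and Ddit3 was called in all 13 alternative fits.

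Ddit3 lies on chromosome 10 (127290774 to 127296288, plus strand) directly beside Mars, and the annotated ends of the genes share 68 exonic bases on opposite strands, 1.99% of the exonic bases of Mars. The strand setting of the counting is not given in the sources used here, so reads in these bases cannot be told apart. Of the 1713 exonic bases of Ddit3, 105 (6.13%) were also shared with a second entry of that name on the same strand, and 13 with Gm4189 on the opposite strand. Mars and Ddit3 were called in opposite directions.

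Atf4 itself had 197, 175 and 190 CPM in Ctrl-labelled libraries and 206, 188 and 218 CPM in cKO-labelled ones, with overlapping groups. Its log2 fold change was 0.12 (SE 0.09, adjusted p = 0.355; 95% interval -0.09 to 0.34). Because ATF4 is regulated mainly at translation, its mRNA level does not measure its protein. Atf5, a related factor, had a log2 fold change of -0.24 (adjusted p = 0.324) and Xbp1, the factor of the IRE1 branch of the unfolded protein response, -0.26 (adjusted p = 0.184, or 0.0447 with total counts).

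Cebpb, a C/EBP factor that partners ATF4, varied most among these genes. It had 198, 121 and 99.0 CPM in Ctrl-labelled libraries and 109, 32.9 and 117 CPM in cKO-labelled ones. The low value of cKO 2 stood apart from all other libraries, and the log2 fold change of -0.69 had a standard error of 0.47 (adjusted p = 0.318).

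Of the 4 stress effectors, the main fit (edgeR with TMM) called 0 in either direction, with 3 past an unadjusted p of 0.05 toward Ctrl-labelled libraries, and DESeq2 called 1, Ppp1r15a. Without Ctrl 2 edgeR called Ppp1r15a and without Ctrl 3 it called Trib3, both lower in cKO-labelled libraries. With the mouse number as a block it called Chac1 higher. With total counts edgeR called 3, Trib3, Sesn2 and Ppp1r15a, all lower in cKO-labelled libraries (adjusted p = 0.0320, 0.0199 and 0.0425). That scaling called 28.7% of all genes lower. Trib3, a pseudokinase that restrains ATF4, was a low gene with 2.04 ± 0.464 CPM (SD, n = 3) in Ctrl-labelled libraries and 1.27 ± 0.182 CPM in cKO-labelled ones, and its groups did not overlap (log2 fold change -0.68, adjusted p = 0.0769). Ppp1r15a (GADD34), which guides the phosphatase that removes phosphate from eIF2, had a log2 fold change of -0.61 (adjusted p = 0.104). Sesn2, the leucine sensor Sestrin 2, had one of -0.42 (adjusted p = 0.126).

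Chac1, which degrades glutathione and is often read as a sensitive ATF4 target, had the largest fold change and the widest spread of the 39 members tested. It was counted at 14.8, 7.77 and 42.4 CPM in Ctrl-labelled libraries and at 37.2, 32.4 and 135 CPM in cKO-labelled ones. Mouse 3 was the highest of both groups, and Ctrl 3 was above cKO 1 and cKO 2. The log2 fold change of 1.66 had a standard error of 0.75 and did not pass (adjusted p = 0.148; 95% interval -0.10 to 3.42). Left out 1 at a time, the libraries moved it from 0.68 to 2.60, and it was called in 0 of these 6 fits by edgeR.

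**Figure D5:**
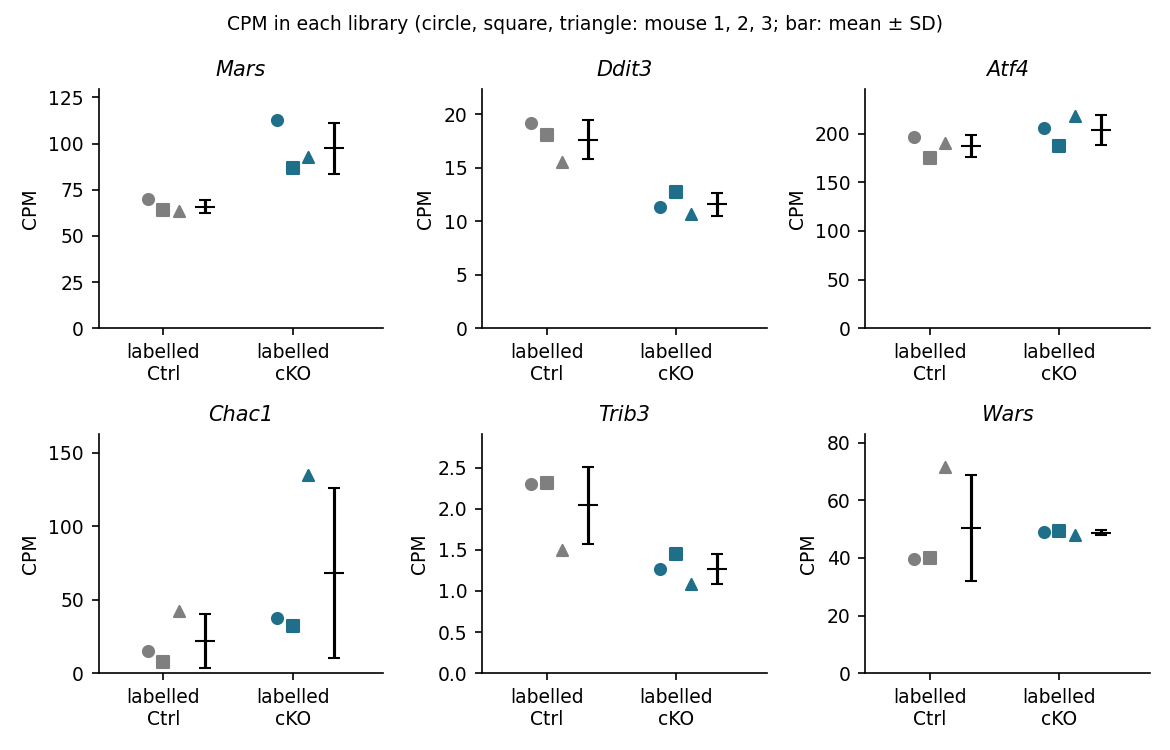
CPM (y axis, from 0) of Mars, Ddit3, Atf4, Chac1, Trib3 and Wars in each library labelled Ctrl (grey) and labelled cKO (blue), with circles, squares and triangles for mice 1, 2 and 3 and the mean ± SD beside them. Mars, Ddit3 and Trib3 show groups that do not overlap, while mouse 3 stands above both other mice of its group in Chac1 and Ctrl 3 does so in Wars.

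The 6 genes of amino acid synthesis were low in GP muscle, with group means of 1.74 to 8.14 CPM in Ctrl-labelled libraries, and edgeR called 0 of them in either direction with TMM or total counts, as did DESeq2 (1 passed an unadjusted p of 0.05, toward cKO-labelled libraries). That gene, Psph, which makes the last step to serine, had 7.84, 8.52 and 8.07 CPM in Ctrl-labelled libraries and 10.5, 9.66 and 9.95 CPM in cKO-labelled ones. The groups did not overlap, and the log2 fold change of 0.30 missed the threshold (SE 0.09, adjusted p = 0.0534). The earlier enzymes of the serine pathway, Phgdh (-0.30) and Psat1 (-0.25), the asparagine synthetase Asns (-0.39) and the proline enzyme Aldh18a1 (-0.29) had negative log2 fold changes, while the proline enzyme Pycr1 was at 0.013. Their adjusted p values were 0.295 to 0.971.

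The 3 mitochondrial one-carbon enzymes, Shmt2 (log2 fold change -0.20), Mthfd2 (-0.26) and Mthfd1l (-0.75), all had negative values, and edgeR with TMM and DESeq2 called 0 of 3 (with TMM, 0 also at an unadjusted p of 0.05 by edgeR). With total counts edgeR called 2 of the 3 lower in cKO-labelled libraries, Shmt2 (adjusted p = 0.0123) and Mthfd2 (adjusted p = 0.0481). The share of all genes called lower was then 28.7%. Mthfd2 was 4.98, 5.00 and 4.48 CPM in Ctrl-labelled libraries and 3.64, 4.39 and 4.02 CPM in cKO-labelled ones, without overlap. Of the amino acid transporters, the large neutral amino acid transporter Slc7a5 (-0.44), its partner subunit Slc3a2 (-0.05) and the cationic amino acid transporter Slc7a1 (-0.37) were not called by edgeR with TMM or by DESeq2, with 1 past an unadjusted p of 0.05. With total counts edgeR called 2 of these 3 lower in cKO-labelled libraries, Slc7a5 (adjusted p = 0.0286) and Slc3a2 (adjusted p = 0.0361), beside the same 28.7% of all genes. Slc7a11, the cystine transporter, had 1, 2 and 3 counts in Ctrl-labelled libraries and 2, 20 and 9 counts in cKO-labelled ones, too few for the fit.

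Slow-fibre and immune markers moved with the groups too. Over all genes tested, 12.6% were called higher in cKO-labelled libraries and 11.8% lower. Slow-fibre markers (8 genes, 3 lower and 0 higher in cKO-labelled libraries, none listed at 0 in any library) summed to 8481 to 14598 CPM in Ctrl-labelled libraries and 446 to 3873 CPM in cKO-labelled ones. Immune markers (8 of 10 tested, 6 lower and 0 higher) summed to 168 to 191 CPM against 76.1 to 107 CPM. Muscle fibre markers (8 genes, 5 higher and 0 lower) summed to 76436 to 82792 CPM against 98054 to 123229 CPM, the lowest of the latter in cKO 2. The 5 were Ckm, Neb, Mylpf, Tnnt3 and Pvalb. By edgeR's quasi-likelihood test Mb leaned the other way without a call (log2 fold change -0.68, adjusted p = 0.0916). Acta1 overlapped between the groups (0.19, adjusted p = 0.474). Sums of endothelial (473 to 514 against 436 to 454 CPM) and Schwann cell markers (142 to 207 against 81.1 to 131 CPM) were somewhat lower in cKO-labelled libraries, while 3 of 8 fibro-adipogenic progenitor markers were lower but their sums overlapped (1412 to 1658 against 969 to 1868 CPM, the highest in cKO 2), and sums of satellite cell and adipocyte markers overlapped as well. Of 5 red blood cell markers, the 4 globin genes were listed at 0 in every library, and Alas2, the only marker counted, overlapped between the groups. The part of these shifts in the values of the members was not tested.

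Genes around the members were read from lists of the same pathways. Of 6 other cytosolic synthetase and scaffold genes (Farsa, Farsb, Tarsl2, Aimp1, Aimp2 and Eef1e1), all 6 had a positive log2 fold change with TMM and all 6 lay above the median of all genes with both scalings, and 1 was called. Over all genes tested 12.6% were called higher. Tarsl2, for a second threonyl-tRNA synthetase, had 78.4, 91.1 and 104 CPM in Ctrl-labelled libraries and 153, 123 and 156 CPM in cKO-labelled ones, without overlap (log2 fold change 0.66, SE 0.14, adjusted p = 0.0149). The 17 mitochondrial synthetases were spread around the median of all genes, with a median of -0.021. Of these, Lars2 (0.72) and Rars2 (0.39) were higher in cKO-labelled libraries and Nars2 (-0.40) and Tars2 (-0.29) in Ctrl-labelled ones, and with total counts 0 and 4 were called. Tarsl2 and these 4 genes were named after their values were seen. With TMM each direction held 11.8% of the 17, near the shares over all genes (12.6% higher and 11.8% lower). With total counts the shares over all genes were 4.75% and 28.7%. Without Ctrl 2, cKO 1 or cKO 3 the call of Tarsl2 was lost, and without Ctrl 1, Ctrl 2 or cKO 3 edgeR called 0 of the 17 mitochondrial synthetases.

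Of 13 genes for eIF2, its exchange factor, its kinases and a phosphatase subunit, 3 were higher in cKO-labelled libraries and 0 lower (1 and 1 with total counts; 0 lower at an unadjusted p of 0.05 by edgeR and with DESeq2; median 0.18 with TMM, -0.069 with total counts, and 0.20 above all genes with both). Over all genes tested, 12.6% were higher and 11.8% lower with TMM, and 4.75% and 28.7% with total counts. Eif2s2, the beta subunit of eIF2, had 101, 108 and 117 CPM in Ctrl-labelled libraries and 184, 173 and 186 CPM in cKO-labelled ones. The groups were far apart, with a log2 fold change of 0.74 (SE 0.08, adjusted p = 0.00285). Eif2b1 (0.38) and the heme-regulated kinase gene Eif2ak1 (0.31) were also called, and the kinase genes Eif2ak4 (GCN2, 0.23) and Eif2ak3 (PERK, -0.16) were not. These genes too were named after their values were seen. The 3 calls became 2 without Ctrl 2 and 1 without Ctrl 1, Ctrl 3, cKO 1 or cKO 3.

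Other genes linked to ATF4 went both ways, with 6 of 17 higher and 1 lower in cKO-labelled libraries (4 and 3 with total counts). The shares over all genes were 12.6% and 11.8% (4.75% and 28.7% with total counts). Gpt2, the mitochondrial alanine aminotransferase, had 98.5, 128 and 135 CPM in Ctrl-labelled libraries and 564, 277 and 441 CPM in cKO-labelled ones, without overlap (log2 fold change 1.83, SE 0.26, adjusted p = 0.00505). Atf3, a stress-induced factor known to lie downstream of ATF4 and of several other signals, had 77.8, 37.2 and 133 CPM against 6.04, 14.4 and 11.7 CPM (log2 fold change -2.94, SE 0.50, adjusted p = 0.00850). The other 5 called, named after their values were seen, were Vldlr (0.86), Aldh1l2 (0.95), Eif4ebp1 (0.71), Slc6a9 (0.68) and Cebpg (0.34), all higher in cKO-labelled libraries. The 6 calls in that direction became 2 without Ctrl 1, Ctrl 2, cKO 1 or cKO 3. Of the stress hormones made by muscle under mitochondrial stress, Gdf15 stayed at or under 0.574 CPM in every library, and Fgf21 had too few counts for the fit.

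Most targets of the unfolded protein response of the endoplasmic reticulum had negative log2 fold changes. Of 21 genes, 8 were lower in cKO-labelled libraries and 0 higher (17 and 0 with total counts), 17 had a negative log2 fold change, and the median was -0.42, or 0.41 below all genes with TMM and 0.40 below with total counts. Over all genes, 11.8% were lower and 12.6% higher with TMM, and 28.7% and 4.75% with total counts. The count was 3 without cKO 1 or cKO 3, 5 without Ctrl 1 and 11 without cKO 2, and DESeq2 called 12 lower and 1 higher. Of all genes, 6.18% were called lower without cKO 1, 5.46% without cKO 3, 5.63% without Ctrl 1 and 12.5% without cKO 2. DESeq2 called 13.2% lower and 14.9% higher. Herpud1 (0.37), Ero1l (0.24) and Sel1l (0.21), named after their values were seen, were higher at an unadjusted p of 0.05 by edgeR, with groups that did not overlap, and 1 gene was called higher without Ctrl 3 or cKO 2. Besides Sdf2l1 and Hspa5 the 8 were Canx, Pdia3, Hyou1, Creld2, Manf and Syvn1, chaperones and degradation factors of this compartment, with log2 fold changes of -0.97 to -0.51. Sdf2l1, a chaperone partner, had 5.11, 5.48 and 8.59 CPM in Ctrl-labelled libraries and 1.69, 3.27 and 1.43 CPM in cKO-labelled ones, without overlap (log2 fold change -1.58, SE 0.35, adjusted p = 0.0193). Hspa5, for the master chaperone BiP and named after its values were seen, had 242, 209 and 291 CPM against 146, 182 and 145 CPM (log2 fold change -0.65, SE 0.15, adjusted p = 0.0213). In both, cKO 2 was the highest cKO-labelled library, as it was for 15 of the 21 genes, and Ctrl 3 was the highest Ctrl-labelled library for 18. Of 12 other one-carbon genes tested, 1 was called, the mitochondrial folate carrier Slc25a32 (0.50, called in 2 of the 6 fits that left out a library, higher in cKO-labelled libraries and also named after its value was seen). This was 8.33% of the 12, against 12.6% of all genes.

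Some members share sequence with other genes, which makes their counts uncertain. Phgdh matched 11 other genes at 95% identity or more over 89.5% of its transcript, and Iars matched Gm4849 over 49.9%. Cebpb shared 20.7% of its exonic bases with Tmem189, Aars 14.3% with Exosc6, Psph 10.4% with Cct6a and Hars 7.97% with Hars2. Among the 6 called synthetases, Mars and Yars shared exonic bases with another gene, up to 1.99%, and 0 had a near-identical stretch elsewhere.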

How the data were processed

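Bulk RNA-Seq was read from GP muscle of 6 mice, 3 in each labelled group. The authors deposited 1 table of raw counts per gene and library, whole numbers without normalization. Trimming was by Trimmomatic 0.39, alignment (mm10) by HISAT2 2.1.0 and counting by featureCounts 1.6.2, as the submitters' processing notes name them. The gene annotation and the strand setting are not given in the sources used here.

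The counts were fitted over all genes with edgeR 4.0.16 (R 4.3.3; TMM factors, filterByExpr, quasi-likelihood test), with group as the only term and Benjamini-Hochberg adjustment over the 14180 genes that passed the filter, and the members were read from that fit. A call is an adjusted p under 0.05. Log2 fold changes are of labelled cKO over labelled Ctrl, with SE and 95% intervals from the fit, and CPM uses TMM library sizes. The fit was tested on simulated data. Ctrl-labelled libraries held 33860001 to 38201728 counts and cKO-labelled ones 39191239 to 48839910, and the lowest count of a synthetase in any library was 1066. Libraries of a group differed by more than sampling noise (chi-square per degree of freedom 30.8 to 107).

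Alternatives were total counts or DESeq2's size factors for scaling, a filter of at least 10 counts per library or none, DESeq2 1.42.0 as the test, a robust fit, the mouse number as a block, and each library left out in turn. Values in every library were planned for called members with the smallest p of each role group, up to 3 a group (Mars, Yars, Sars and Ddit3), and for pathway genes called with a fold change over 2 (Gpt2, Atf3 and Sdf2l1). Values for other genes were added after they were seen. The members and lists were chosen with earlier results of these data known. Positions and exon lengths came from GENCODE M21, promoters from RefSeq on GRCm38.p6, and near-identical stretches (at least 75 bases at 95% identity) from BLAST 2.17.0.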

Additional observations from a re-analysis of the deposited data

How the results depend on the processing

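Of 507 fold changes (39 members under 13 alternatives), 438 kept their side of the threshold and their sign, or, where not called in either fit, moved across 0 by less than 1 standard error. The same sign was kept with a call lost in 37 and gained in 20, the sign turned by more than that with no call in 9, and it turned with a call in either fit in 3. The 6 members called higher in cKO-labelled libraries became 1 with total counts and 0 to 9 when 1 library was left out. The 1 member higher in Ctrl-labelled ones became 11 with total counts, 2 with DESeq2 (Ddit3 and Ppp1r15a) and 1 to 2 when 1 library was left out. With total counts 28.7% of all genes were called in that direction. The median over all members, 0.0051, was -0.24 with total counts and -0.077 to 0.079 when 1 library was left out. Signs turned for Gars (-0.0059) and Kars (-0.24) with total counts and for Wars without Ctrl 3, whose fits without 1 library gave -0.19 to 0.30. With total counts the shift of all genes accounts for the move by construction, and for the others the cause was not tested.

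Mouse numbers shared by the groups did not pair the libraries (correlation of same-numbered deviations 0.084, -0.21 and -0.0020). With the mouse number as a replicate block, 2 members were higher in cKO-labelled libraries (Mars and Chac1), 1 of them, Chac1, with a fold change over 2 (adjusted p = 0.0113), and Ddit3 was still the 1 called the other way. Over all genes the block gave 927 higher and 972 lower, against 1786 and 1668 without it, and fits without 1 library gave 766 to 1777 higher and 788 to 1808 lower. Depth limits the low members most, with Mthfd1l at 20 counts in 1 library.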
